A study of Mus musculus with 10 samples.

Results

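The genes described here are the protein-coding genes of human chromosome 11, taken in order of their start position, in LNCaP tumours of mice given sipuleucel-T with or without interleukin-15. They were chosen by 3 criteria: location on chromosome 11 with protein-coding biotype, at least 100 counts summed over the 10 libraries, and a name outside a fixed set (FOLH1, IRF7, STIP1 and names that start with RPL, RPS, NDUF, OR51 or CD3). Of 1309 protein-coding genes of the chromosome, 157 had 0 counts in all libraries, 391 had 1 to 99 counts and 761 had at least 100, of which 18 were left out by name. This left 743 genes of 58735 in the table. The chromosome itself was selected on the difference between the 2 treatment groups in these libraries, so the values of that contrast are given as a description, with no test of the chromosome. Just inside the floor were GPHA2 with 100 counts, PANX3 with 102 and CD5 with 104. BCO2 with 96 counts, CHRDL2 with 94 and OR8G1 with 94 were just outside.

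LNCaP, a human prostate cancer line that responds to androgen, was grown under the skin of NOD.Cg-Prkdcscid Il2rgtm1Wjl/SzJ mice, which carry the Prkdc scid mutation and lack the common gamma chain of interleukin receptors, and so have no T, B or NK cells of their own. Each inoculum held 3 × 1e+06 LNCaP cells, and both groups received 4 weekly intraperitoneal injections of 5 × 1e+06 sipuleucel-T cells, a human blood cell product cultured with a prostatic acid phosphatase antigen fused to GM-CSF. In the group named IL15sipT recombinant human interleukin-15 (1 µg) was also given, and in the group named CONTsipT it was not. The series' text speaks of cells treated with interleukin-15 and the sample labels of control cells given with it, so treatment of the cells and injection cannot be told apart; the same text gives the control mice a sham dose of vehicle. The tumours were removed 7 days after the final injection, with 5 libraries a group. Nothing in the labels names donors or batches, and p-values therefore measure only the spread among these 10 tumour samples.

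Chromosome 11 is a gene-rich human chromosome. Its short arm holds an imprinted domain at the tip, where several growth regulators are read from one parental copy only, and large arrays of olfactory receptor and TRIM genes. Its long arm holds the cyclin D1 gene, a driver of entry into S phase that is amplified in several carcinomas, the matrix metalloproteinase array beside the Hippo pathway effector YAP1, and the genes of the DNA damage kinase ATM and the histone methyltransferase KMT2A. Neighbours along the chromosome differ widely in function, so an ordered view sets genes of unrelated pathways side by side.

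Library totals ran from 13.6 to 19.3, in units of 1e+06 counts, and a count of 3 was worth 0.155 to 0.221 CPM (library counts scaled to a total of 1e+06), a floor that covers counting error only. The 11 prostate luminal markers, KLK3 and KLK2 among them, summed to between 8014 and 12547 CPM in CONTsipT and between 9212 and 14880 CPM in IL15sipT, and none was at 0. T cell markers of other chromosomes summed to 4.24 to 16.7 CPM and 5.95 to 47.0 CPM, and NK and cytotoxicity markers to 1.26 to 14.9 CPM and 3.73 to 42.0 CPM. Fewer cells of a type and less RNA per cell cannot be told apart in these bulk libraries. These sums are per library total, and CPM of single genes below are also scaled by TMM, edgeR's library factor.

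Most of the chromosome 11 genes had a lower fitted level in IL15sipT than in CONTsipT, by an amount that varied along the chromosome. The median log2 fold change of the 743 genes, fitted by edgeR over all genes, was -0.27, with quartiles of -0.41 and -0.12, which is a ratio of 0.828. In all, 628 were below 0 and 115 above, so that 84.5% were below. The 11746 genes of other autosomes chosen by the same criteria had a median of -0.01 and 52.3% below 0. No chromosome 11 gene passed an adjusted p of 0.05, the smallest adjusted p being 0.732 (edgeR's quasi-likelihood test, Benjamini-Hochberg over 17193 genes), and the same was true of all genes fitted (0%). DESeq2 called 0 of the chromosome 11 genes.

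At an unadjusted p under 0.05, 176 chromosome 11 genes (23.7%) were lower in IL15sipT and 11 (1.48%) were higher, beside 3.52% lower and 3.24% higher over all genes fitted. In 6 genes (0.808%) every IL15sipT library was below every CONTsipT library, and in 0 genes was every one above; over all genes these shares were 0.32% and 0.378%. Because the chromosome was selected on this contrast, nothing is read from these counts. The 18 genes left out by name had a median of -0.45, with 17 of them below 0. The 177 genes of other biotypes on chromosome 11 that passed the count floor had a median of -0.16, while the 3785 such genes of the other autosomes had one of 0.10.

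**Figure D1:**
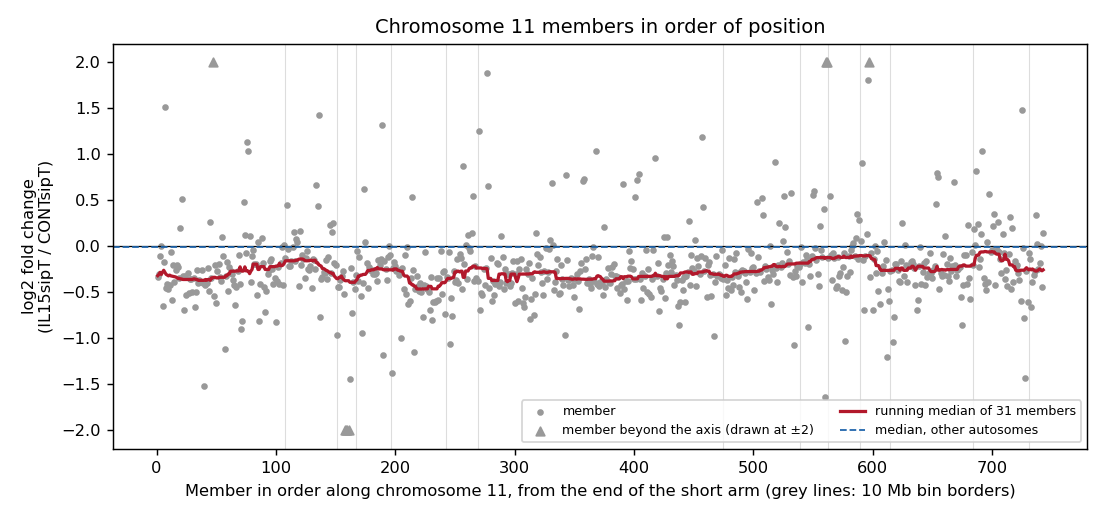
Fitted log2 fold change (IL15sipT over CONTsipT, vertical axis, drawn within ±2) of the chromosome 11 genes in order of gene start (horizontal axis, rank); points are genes, the line is a running median over 31 genes, and 8 genes beyond the axis are drawn at its edge. Of the 743 genes 628 lie below 0.

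Among 22 autosomes ordered by the median of genes chosen in the same way, chromosome 11 was the lowest. The next was chromosome 4 at -0.11, where 71.0% of 435 genes were below 0. At the other end stood chromosome 13 at 0.13 and chromosome 14 at 0.12. No test of the difference between chromosomes was made, since the chromosome was selected on it.

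**Figure D2:**
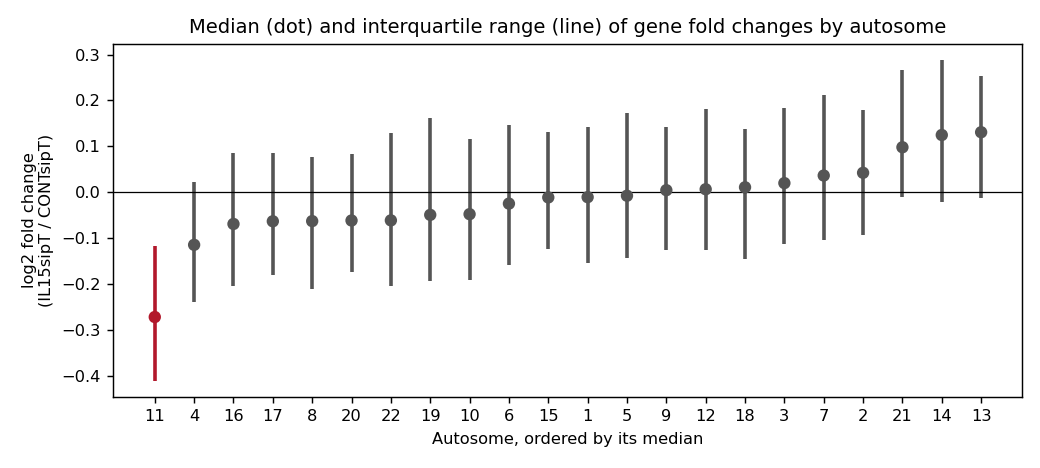
Median log2 fold change (IL15sipT over CONTsipT) of each of the 22 autosomes, with bars from the lower to the upper quartile over genes. Chromosome 11 stands at -0.27 and the other 21 chromosomes between -0.11 and 0.13.

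All 14 bins of 10 Mb along chromosome 11 had a median below 0. The lowest were 20 to 30 Mb (16 genes, all below 0) at -0.45 and 40 to 50 Mb (46 genes, 45 below 0) at -0.43. The gene-rich bins at 0 to 10 Mb (107 genes) and 60 to 70 Mb (205 genes) had medians of -0.33 and -0.32. At an unadjusted p under 0.05, 31 (29.0%) and 64 (31.2%) of their genes were lower. In the bin at 40 to 50 Mb, 22 (47.8%) were lower. The share was 23.7% of all chromosome 11 genes and 3.52% of all genes fitted. The bins nearest to 0 were 80 to 90 Mb at -0.11, 90 to 100 Mb at -0.12 and 120 to 130 Mb at -0.13. Those 3 bins held 17 of 23, 21 of 27 and 32 of 47 genes below 0. Between 70 and 80 Mb the median was -0.26 (65 genes), and between 110 and 120 Mb it was -0.25 (70 genes). Set beside 260 bins of the other autosomes that held at least 10 such genes, of which 139 were below 0, the bins of chromosome 11 took 9 of the 10 lowest places. The lowest bin elsewhere, at 130 to 140 Mb of chromosome 10, had a median of -0.23. Because the chromosome was selected on this contrast, low places of its bins were largely set beforehand, and nothing is read from them.

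The longest stretch of neighbouring chromosome 11 genes that were all below 0 held 44 genes, from UNC93B1 (start 67991104, hg38) to PAAF1 (start 73876699), and took in CCND1, CTTN and DHCR7. On the other autosomes the longest such stretch held 17 genes. Below 0 lay 84.5% of the chromosome 11 genes and 52.3% of the others, and a larger share by itself gives longer stretches. The chromosome was selected on this contrast, so nothing is read from the length. In bins of 5 Mb, 96.2% of the chromosome 11 bins were below 0, and the exception, at 95 to 100 Mb, had a median of 0.01.

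The genes were also compared within classes of level, length and gene density. When all chosen genes were split into 3 classes of equal size by FPKM (fragments scaled by gene length and library depth), chromosome 11 genes had medians of -0.13, -0.26 and -0.34 from the low to the high class, and genes of other autosomes 0.10, 0.00 and -0.07. By gene length the chromosome 11 medians were -0.31, -0.26 and -0.26 from short to long, beside -0.03, 0.00 and 0.00. By the number of neighbouring genes within 1 Mb they were -0.21, -0.26 and -0.33 from sparse to dense, beside 0.00, 0.00 and -0.04. The gap to the other autosomes thus lay between -0.22 and -0.28 in every class. Genes that overlap another gene of the table (503) and genes that overlap none (240) both had a median of -0.27.

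The single libraries showed how this group difference was made up. The offset of a library is the median over the chromosome 11 genes of log2 CPM minus each gene's mean over the 10 libraries, less the same median over the genes of other autosomes. In the CONTsipT libraries 1 to 5 the offset was 0.12, 0.21, 0.22, -0.21 and 0.29 on the log2 scale. In the IL15sipT libraries 1 to 5 it was -0.13, -0.19, -0.19, 0.04 and -0.13. The groups overlapped: CONTsipT4 had the lowest offset of all 10 libraries, and IL15sipT4 lay above the other 4 of its group. The group means were 0.13 ± 0.20 and -0.12 ± 0.09 (SD, n = 5 each), so the difference of the means, -0.25, was of the order of the spread within CONTsipT. As a ratio to the mean over libraries, the offset was 1.22 in CONTsipT5 and 0.867 in CONTsipT4.

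**Figure D3:**
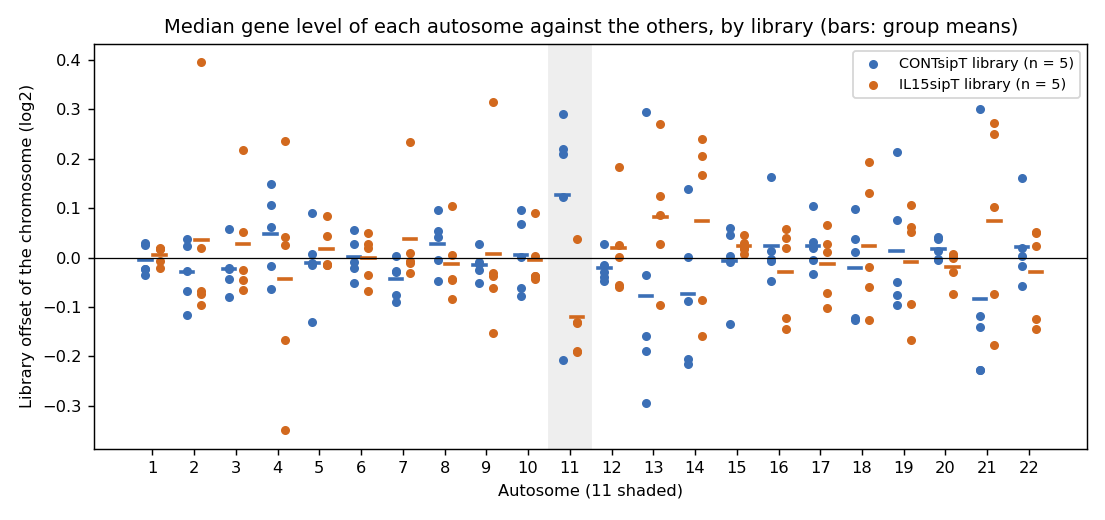
Offset of each library (log2, vertical axis) for chromosome 11 and other autosomes; points are libraries, coloured by group, and bars are group means. For chromosome 11 the CONTsipT libraries spread from -0.21 to 0.29 and the IL15sipT libraries from -0.19 to 0.04.

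In most libraries nearly all bins lay on the same side of 0. In CONTsipT2 all 14 bins of 10 Mb were above 0, and in CONTsipT1, CONTsipT3 and CONTsipT5 13 of 14 were. In CONTsipT4, IL15sipT1 and IL15sipT5 none of the 14 bins was above 0. IL15sipT2 had 6 bins above 0, IL15sipT3 had 2 and IL15sipT4 had 5. In every bin the ranges of the groups overlapped. At 0 to 10 Mb, for example, CONTsipT4 had the lowest offset of all libraries (-0.29) and CONTsipT5 the highest (0.36).

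**Figure D4:**
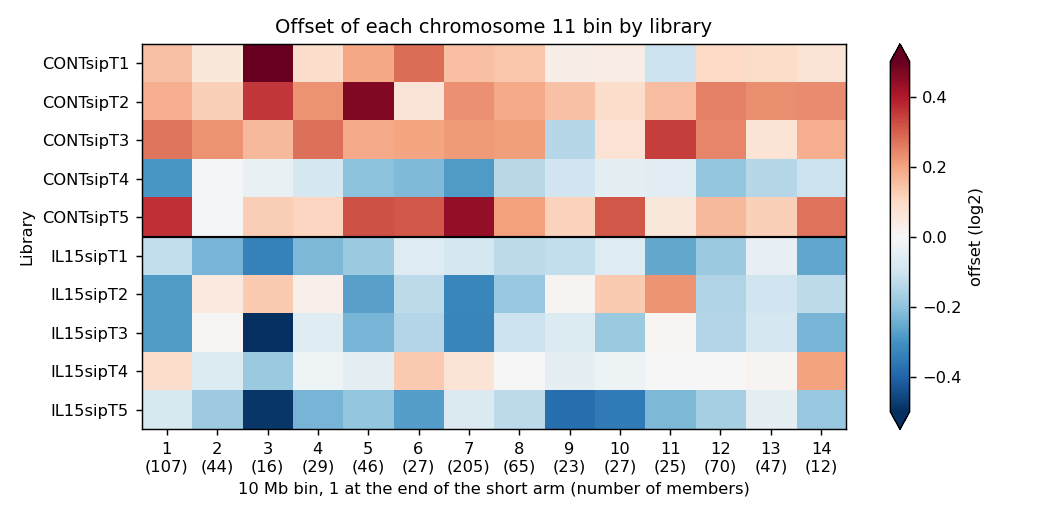
Offset (log2, colour) of each 10 Mb bin of chromosome 11 in each of the 10 libraries. CONTsipT4, IL15sipT1 and IL15sipT5 are below 0 in all 14 bins and CONTsipT2 is above 0 in all 14.

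Gene by gene the same libraries stood apart. Within CONTsipT, CONTsipT4 was the lowest library for 445 of the 743 genes (59.9%), whereas it was the lowest for 21.9% of the genes of other autosomes. Each of the other CONTsipT libraries was lowest for 6.86% to 12.5% of the chromosome 11 genes. Within IL15sipT, IL15sipT4 was the highest library for 242 of the 743 chromosome 11 genes (32.6%) and for 1562 of the 11746 genes of other autosomes. In every IL15sipT library more chromosome 11 genes were below than above the mean of the CONTsipT libraries, at 75.5%, 75.8%, 71.1%, 67.0% and 81.0% in libraries 1 to 5, with 45.9% to 53.5% on other autosomes. Without CONTsipT4 the median of chromosome 11 was -0.33 and 267 genes were lower at an unadjusted p under 0.05. In 116 genes the groups then did not overlap, against 6 with it. Over all genes these 2 shares were then 5.07% and 1.63%. For the 445 genes in which CONTsipT4 was the lowest control, leaving it out raises the control minimum. The rise to 116 is thus partly built in, and nothing is read from it. Without IL15sipT3, 97 genes were lower at an unadjusted p under 0.05, beside 1.83% of all genes. The number was 108 without CONTsipT2, 106 without CONTsipT3 and 114 without IL15sipT1, beside 2.25%, 2.33% and 2.20% of all genes.

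Offsets of similar size occurred on other chromosomes. The range of the offset over the 10 libraries was 0.50 on chromosome 11, the fifth largest of the 22, after chromosomes 13 and 4 (0.59 each), 21 (0.53) and 2 (0.51). The difference between group means was 0.16 on chromosome 13, 0.16 on chromosome 21, 0.15 on chromosome 14 and -0.09 on chromosome 4. On chromosome 11 it was -0.25. Single libraries reached 0.40 on chromosome 2 (IL15sipT2), -0.35 on chromosome 4 (IL15sipT5) and 0.32 on chromosome 9 (IL15sipT5).

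Of the single genes, 6 had no overlap between groups. NFRKB, which encodes a subunit of the INO80 chromatin remodelling complex (ENSG00000170322, chromosome 11, 129863636 to 129895590, hg38), had 211, 254, 340, 233 and 267 CPM in CONTsipT libraries 1 to 5 and 150, 173, 168, 186 and 180 CPM in IL15sipT. Its log2 fold change was -0.61 ± 0.14 (standard error, as for all fold changes below), which did not pass the adjusted threshold. MAPK8IP1, a scaffold of the JNK kinase cascade (45885651 to 45906465), had 81.9, 79.8, 88.0, 85.5 and 91.7 CPM in CONTsipT and 57.2, 51.3, 50.8, 73.0 and 65.2 CPM in IL15sipT, with a log2 fold change of -0.52 ± 0.13. In both genes CONTsipT4 lay within its group, unlike its place over the chromosome.

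PLEKHA7, a protein of epithelial adherens junctions (16777317 to 17014443), had 50.8, 46.7, 51.8, 49.1 and 52.4 CPM in CONTsipT and 32.8, 35.8, 41.8, 37.6 and 35.7 CPM in IL15sipT. Its log2 fold change of -0.45 ± 0.11 had a narrow spread in both groups. CAPN1, the large subunit of the calcium-dependent protease calpain 1, had 200 to 260 CPM in CONTsipT and 148 to 189 CPM in IL15sipT (log2 fold change -0.40 ± 0.13). PPP6R3, a regulatory subunit of protein phosphatase 6, and KBTBD4, an adaptor of a cullin ubiquitin ligase, had log2 fold changes of -0.30 ± 0.13 and -0.35 ± 0.17. In both genes CONTsipT4 was the lowest library of its group. For PPP6R3 it had 119.04 CPM, and IL15sipT4 had 118.86 CPM, so the groups barely parted. KBTBD4 had 9.67 to 13.0 CPM in CONTsipT and 7.71 to 8.85 CPM in IL15sipT, with an unadjusted p of 0.055 (edgeR's quasi-likelihood test). KBTBD4 overlaps NDUFS3 and PTPMT1 on the opposite strand, and since no source used here gives the strand setting of the counting, their reads may not be told apart.

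**Figure D5:**
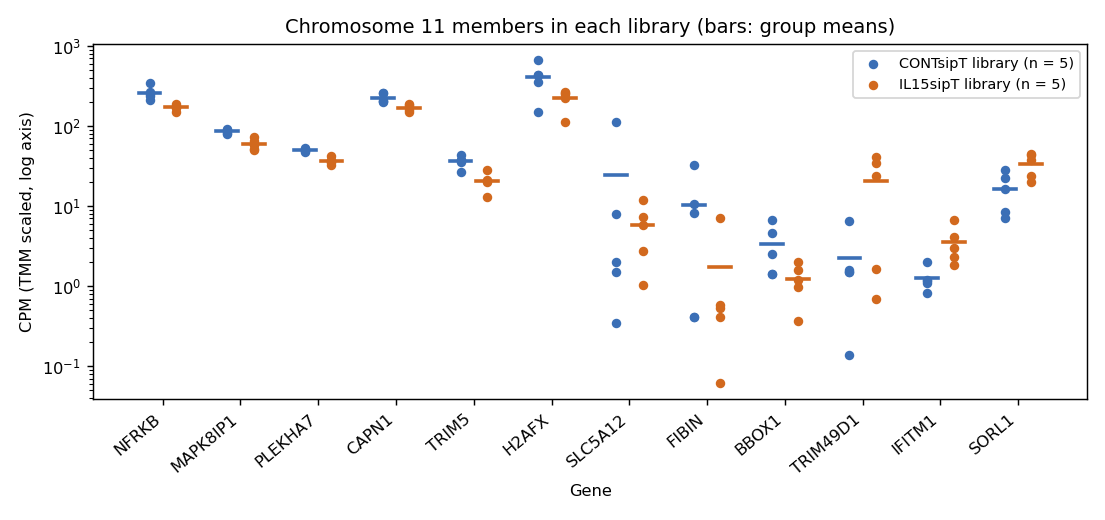
CPM (log axis) of single chromosome 11 genes in each library, CONTsipT beside IL15sipT; points are libraries. NFRKB, MAPK8IP1 and PLEKHA7 show groups that do not overlap, while FIBIN runs from 0.408 to 32.4 CPM within CONTsipT and TRIM49D1 from 0.692 to 40.9 CPM within IL15sipT; bars are group means.

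At the short-arm tip, all 10 genes of the imprinted domain and its neighbours that passed the count floor were below 0 (median -0.29). At an unadjusted p under 0.05, 3 (30%) were lower, beside 23.7% of all chromosome 11 genes and 3.52% of all genes fitted. This list and those below hold chromosome 11 genes only, so none stands for a whole pathway. Of all chromosome 11 genes 84.5% were below 0, with a median of -0.27. PHLDA2, a maternally expressed growth restraint of the placenta (2928273 to 2929455), had 71.5, 110, 171, 90.8 and 179 CPM in CONTsipT and 38.3, 69.3, 32.1, 86.6 and 61.0 CPM in IL15sipT, a log2 fold change of -1.11 ± 0.32. CONTsipT1 and IL15sipT4 were the libraries that overlapped. NAP1L4, a histone chaperone, and OSBPL5, a lipid transfer protein, had log2 fold changes of -0.32 ± 0.14 and -0.49 ± 0.17. IGF2, the paternally expressed growth factor of the domain, had 0 counts in all libraries and was not among the genes described.

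The TRIM and IFITM genes of the same arm, many of which restrict virus entry or replication, were mixed: of 9 genes 6 were below 0 and 3 above, with a median of -0.13. TRIM5, a capsid-binding restriction factor (5663557 to 5938619), had 35.7, 43.7, 37.6, 26.9 and 37.5 CPM in CONTsipT and 20.2, 28.5, 20.4, 21.4 and 13.1 CPM in IL15sipT (log2 fold change -0.81 ± 0.20). CONTsipT4 and IL15sipT2 were the libraries that overlapped, and TRIM5 overlaps TRIM22 on the opposite strand. IFITM1, an interferon-induced membrane protein (313506 to 315272), had 1.09, 1.2, 1.99, 0.816 and 1.15 CPM in CONTsipT and 2.96, 1.86, 2.31, 4.08 and 6.77 CPM in IL15sipT. Its log2 fold change was 1.52 ± 0.39, and CONTsipT3 with IL15sipT2 were the libraries that overlapped.

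All 9 genes of the cyclin D1 neighbourhood that passed the floor were below 0, with a median of -0.34. At an unadjusted p under 0.05, 2 (22.2%) were lower, beside 23.7% of all chromosome 11 genes and 3.52% of all genes fitted. CCND1 (69641087 to 69654474) had 158, 298, 364, 174 and 204 CPM in CONTsipT and 110, 181, 154, 216 and 284 CPM in IL15sipT, with a log2 fold change of -0.34 ± 0.28. IL15sipT5 exceeded 3 of the CONTsipT libraries, so the groups overlapped widely. CTTN, an actin-binding protein of the cell cortex, had a log2 fold change of -0.52 ± 0.19, and DHCR7, the last enzyme of cholesterol synthesis, one of -0.46 ± 0.21. FGF3, FGF4 and FGF19, the growth factor genes between CCND1 and CTTN, had 0 counts.

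DNA replication and repair genes of chromosome 11 had a median of -0.31, with 19 of 20 below 0. At an unadjusted p under 0.05, 4 (20%) were lower, beside 23.7% of all chromosome 11 genes and 3.52% of all genes fitted. H2AFX, the histone variant phosphorylated at DNA breaks (119093854 to 119095467), had 349, 431, 430, 149 and 664 CPM in CONTsipT and 259, 254, 113, 225 and 265 CPM in IL15sipT (log2 fold change -0.86 ± 0.34). CONTsipT4 was again the low library of its group. DDB1, an adaptor of the CUL4 ubiquitin ligase that takes part in repair of ultraviolet damage, had 84.7 to 129 CPM and 56.8 to 93.2 CPM, with a log2 fold change of -0.59 ± 0.17. ATM was the gene of this list above 0, at 0.05 ± 0.20.

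Chromatin regulators and tumour suppressors of chromosome 11 had a median of -0.27, with 22 of 23 below 0. At an unadjusted p under 0.05, 7 (30.4%) were lower, beside 23.7% of all chromosome 11 genes and 3.52% of all genes fitted. KMT2A (118436464 to 118526832) had 83.9, 87.5, 90.8, 76.3 and 65.8 CPM in CONTsipT and 55.4, 63.1, 73.4, 63.5 and 71.3 CPM in IL15sipT, a log2 fold change of -0.31 ± 0.13. CONTsipT5 was the low library here. MEN1, which encodes the menin subunit of KMT2 complexes, had a log2 fold change of -0.39 ± 0.19, NUP98, a nuclear pore protein, one of -0.37 ± 0.13, and ZBTB16, a zinc finger repressor, one of -0.69 ± 0.22. The gene of this list above 0 was the transcription factor ETS1, at 1.48 ± 0.60.

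Metabolic genes of chromosome 11 had a median of -0.23, with 23 of 29 below 0. At an unadjusted p under 0.05, 7 (24.1%) were lower, beside 23.7% of all chromosome 11 genes and 3.52% of all genes fitted. PNPLA2, the triglyceride lipase of lipid droplets, had 76.6 to 125 CPM in CONTsipT and 54.7 to 89.8 CPM in IL15sipT (log2 fold change -0.50 ± 0.17). LDHA, lactate dehydrogenase A, had a log2 fold change of -0.15 ± 0.25, with 872 to 2253 CPM and 914 to 1648 CPM, and catalase (CAT) one of -0.29 ± 0.16. PC, pyruvate carboxylase, at -0.65 ± 0.21, and the synaptic adhesion gene LRFN4, at -0.86 ± 0.23, overlap on opposite strands and may share reads.

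Lysosome and autophagy genes of chromosome 11 had a median of -0.29, with 19 of 24 below 0. At an unadjusted p under 0.05, 9 (37.5%) were lower, beside 23.7% of all chromosome 11 genes and 3.52% of all genes fitted. CTSD, the lysosomal protease cathepsin D, had 118, 149, 189, 129 and 162 CPM in CONTsipT and 94.0, 109, 100, 171 and 115 CPM in IL15sipT (log2 fold change -0.34 ± 0.18). IL15sipT4 was above 4 of the 5 CONTsipT libraries, as it was high for many genes of the chromosome. PACS1, a sorting adaptor of the trans-Golgi network, had a log2 fold change of -0.52 ± 0.15, AMBRA1, a regulator of autophagy, one of -0.46 ± 0.15, and VPS37C, a subunit of the ESCRT sorting machinery, one of -0.45 ± 0.15. Surface glycoproteins had a median of -0.23, with 11 of 16 below 0. Among them the tetraspanin CD151 had -0.66 ± 0.20, which overlaps POLR2L, and the membrane protease ST14 had -0.66 ± 0.25.

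The genes with the highest level per length were on the same side. FTH1, the ferritin heavy chain that stores iron (61959718 to 61967660), had the highest FPKM of the chromosome 11 genes in CONTsipT, 437 ± 103, and 283 ± 44.4 in IL15sipT (SD, n = 5 each). Its CPM were 755, 709, 1137, 1138 and 1137 in CONTsipT and 496, 641, 608, 701 and 745 in IL15sipT, and its log2 fold change was -0.61 ± 0.18. CONTsipT2 was below IL15sipT5, so the groups overlapped, and CONTsipT1 was just above it. Since FTH1 has many processed pseudogenes, its count is uncertain. COX8A, a subunit of cytochrome c oxidase, had 357 ± 76.4 and 278 ± 45.0 FPKM, and HSPA8, the constitutive HSC70 chaperone, 269 ± 57.6 and 210 ± 33.0 FPKM. Their log2 fold changes were -0.35 ± 0.17 and -0.34 ± 0.17.

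The bin with the lowest median, at 20 to 30 Mb, held a cluster of scarce genes near 26 to 27 Mb with very uneven levels; these were singled out after their values had been seen. ANO3, a membrane protein of the anoctamin family (26309599 to 26663288), had 10.6, 1.06, 0.205, 2.04 and 0.143 CPM in CONTsipT and 0.344, 0.266, 0.187, 0.143 and 0 CPM in IL15sipT. SLC5A12, a sodium-coupled lactate transporter (26667019 to 26723427), had 8.07, 1.49, 0.342, 112 and 2.01 CPM in CONTsipT and 2.75, 11.9, 7.29, 5.80 and 1.03 CPM in IL15sipT. FIBIN (26994184 to 26996121) had 32.4, 8.28, 0.411, 0.408 and 10.7 CPM in CONTsipT and 0.413, 0.532, 0.0623, 7.02 and 0.589 CPM in IL15sipT. CONTsipT1 held the highest value of ANO3 and FIBIN, and CONTsipT4 that of SLC5A12.

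The log2 fold changes of these 3 genes were -3.82 ± 1.16, -2.10 ± 1.40 and -2.61 ± 1.39, and their size depended on single libraries. Those of ANO3 and FIBIN stayed below 0 whichever library was left out. Without CONTsipT1 that of ANO3 was -2.14 and that of FIBIN -1.53, and without IL15sipT4 that of FIBIN was -4.69. Without CONTsipT4 that of SLC5A12 was 0.95, a turn of direction. LGR4, a receptor for R-spondins that strengthens Wnt signalling (27365961 to 27472775), had 67.4, 28.2, 29.4, 47.8 and 27.1 CPM in CONTsipT and 14.8, 33.7, 24.8, 26.5 and 21.1 CPM in IL15sipT, with a log2 fold change of -0.73 ± 0.28. Farther along, LIN7C, KIF18A and METTL15 had log2 fold changes of -0.39 ± 0.20, -0.46 ± 0.31 and -0.31 ± 0.22. At 5 Mb resolution the bin at 25 to 30 Mb held 10 genes with a median of -1.08.

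The 11 genes at an unadjusted p under 0.05 and higher in IL15sipT were mostly scarce. SORL1, a sorting receptor of endosomes (121452203 to 121633693), had 28.3, 8.35, 22.4, 16.5 and 7.16 CPM in CONTsipT and 37.9, 20.1, 43.3, 44.5 and 23.8 CPM in IL15sipT, a log2 fold change of 1.03 ± 0.38. MMP10, a secreted stromelysin (102770503 to 102780628), had 0.576, 0.708, 0.0685, 0.233 and 0.143 CPM in CONTsipT and 4.27, 0.160, 3.87, 1.86 and 1.18 CPM in IL15sipT (log2 fold change 2.68 ± 0.77). TBX10, a T-box transcription factor, and KCNJ11, a subunit of ATP-sensitive potassium channels, had log2 fold changes of 1.19 ± 0.32 and 0.67 ± 0.22. TRIM49D1 had 6.59, 1.49, 0.137, 1.57 and 1.5 CPM in CONTsipT and 24.0, 0.692, 34.9, 40.9 and 1.62 CPM in IL15sipT. It and its near-identical copy TRIM49D2 may share reads, so both counts are uncertain.

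Of the leukocyte genes of chromosome 11, 8 passed the count floor. Of these 3 were below 0, the lowest at -0.80, and 5 above, with a median of 0.72. At an unadjusted p under 0.05, 2 (25%) were higher, LSP1 and LPXN, beside 1.48% of all chromosome 11 genes and 3.24% of all genes fitted. LSP1, an actin-binding protein of leukocytes (1852970 to 1892267), had 0.128, 0.0708, 1.23, 0.175 and 0.143 CPM in CONTsipT and 5.30, 0.266, 2.06, 1.79 and 0.294 CPM in IL15sipT (log2 fold change 2.45 ± 0.93). CD6, a T cell surface receptor, had 0.0716 to 1.78 CPM and 0.106 to 4.89 CPM, and ETS1 0.466 to 3.42 CPM and 1.12 to 6.54 CPM. For LSP1, CD6 and ETS1 the high libraries were IL15sipT1, IL15sipT3 and IL15sipT4, with CONTsipT3 the high one of its group. The T cell markers of other chromosomes were highest in IL15sipT1, IL15sipT3 and IL15sipT4, at 47.0, 30.8 and 24.1 CPM. Among the controls they were highest in CONTsipT3, at 16.7 CPM. Their part in the levels of these genes was not tested. The 21 leukocyte genes of chromosome 11 in the table summed to 49.8 to 72.1 CPM in CONTsipT and 41.8 to 89.0 CPM in IL15sipT, with MS4A1, MS4A6A and PTPRCAP at 0.

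Around YAP1 on the long arm 9 genes passed the floor, of which 6 were below 0 and 3 above, with a median of -0.10. At an unadjusted p under 0.05 none was lower, beside 23.7% of all chromosome 11 genes and 3.52% of all genes fitted. Only MMP10 was higher (11.1%), beside 1.48% of all chromosome 11 genes and 3.24% of all genes fitted. With 9 genes nothing is read from these shares. YAP1 (102110461 to 102233423) had 115, 151, 207, 143 and 106 CPM in CONTsipT and 90.6, 161, 143, 137 and 122 CPM in IL15sipT, a log2 fold change of -0.15 ± 0.20. MMP7, the epithelial metalloproteinase matrilysin, had 9.09, 4.03, 15.8, 0.874 and 2.08 CPM in CONTsipT and 21.3, 4.20, 3.55, 79.7 and 2.87 CPM in IL15sipT (log2 fold change 1.81 ± 1.11), and without IL15sipT4 the log2 fold change was 0.32. DCUN1D5, a cofactor of cullin neddylation at the far end of the array, had a log2 fold change of -0.33 ± 0.17.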

How the data were processed

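RNA of LNCaP tumours was sequenced, per the labels' protocols. Tools listed by the submitters' processing notes include HISAT2 2.0.5 and featureCounts 1.5.0-p3, with build hg38. No source used here gives the strand setting, the annotation release or a removal of mouse reads. The labels give mouse as the organism, while the deposited table holds human Ensembl genes. The deposited raw counts per gene were used as they are; the deposited FPKM values were made by the authors and used for levels per length and 1 alternative, and a deposited table of group mean FPKM was not used.

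Genes with at least 100 counts over the 10 libraries (17193, without 519 Y-linked genes and XIST) were fitted with edgeR 4.0.16 in R 4.3.3 (TMM scaling, robust quasi-likelihood test, no covariates), with Benjamini-Hochberg adjustment. The common biological coefficient of variation was 0.318. Log2 CPM used a prior count of 2. All 45 pairs of libraries differed beyond counting error (chi-square divided by its degrees of freedom, 20.4 to 90.3).

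Members, gene lists and tests were chosen with earlier results of these data known. Named genes were 10 genes each way by smallest p among those averaging 1 CPM or more, up to 3 of each list, 11 fixed genes and the 2 highest FPKM of each bin. Splits by level, length and neighbours, stretches below 0, lowest and highest libraries, the genes at 26 to 27 Mb, KBTBD4, CAPN1, PPP6R3 and TRIM49D2 were added after values had been seen. Alternatives covered scaling, count floor, DESeq2 1.42.0, limma 3.58.1 (voom, and log2(FPKM + 0.1)), trends, bin size, the replicate block and each library left out.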

Additional observations from a re-analysis of the deposited data

Results flagged for a closer look

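In 20 of 204 sets of 5 libraries the highest or lowest library lay far from the other 4. Some of the genes were named after their values were seen, and the bins share genes with the chromosome. The count of 20 therefore has no chance level to be set beside, and nothing is read from it. Of the 20, 7 were IL15sipT4. In that library the chromosome 11 offset was 0.038 (the other 4 from -0.19 to -0.13), that of 110 to 120 Mb -0.0010 and that of 130 to 140 Mb 0.20, and CTSD had 171 CPM, PACS1 125 CPM, MMP7 79.7 CPM and FIBIN 7.02 CPM. CONTsipT4 had an offset of -0.14 at 70 to 80 Mb, against 0.14 to 0.21 in the other controls, and 112 CPM of SLC5A12. CONTsipT1 had 10.6 CPM of ANO3, 6.08 CPM of its overlapping neighbour MUC15 and 6.59 CPM of TRIM49D1. CONTsipT3 had 1.23 CPM of LSP1, 1.78 CPM of CD6 and 3.42 CPM of ETS1. The others were KBTBD4 at 13.0 CPM in CONTsipT2, APLP2 at 762 CPM in CONTsipT5, TMEM126A at 30.01 CPM in IL15sipT2, and CREBZF at 169 CPM and H2AFX at 113 CPM in IL15sipT3. What sets these libraries apart was not tested.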

How the results depend on the processing

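Over 24 alternatives the chromosome 11 median stayed below 0, from -0.33 (without CONTsipT4) to -0.19 (library size alone), and its gap to the other autosomes ran from -0.33 to -0.22; chromosome 11 was the lowest autosome in each. Library size alone gave 78.2% of genes below 0, 104 lower and 17 higher at an unadjusted p under 0.05 and 3 lower without overlap, where these shares over all genes were 1.97%, 4.76% and 0.157%. No low-count filter gave 19 higher, beside 3.31% of all genes then fitted, and 1 gene of the whole table at an adjusted p under 0.05. A floor of 500 counts for the chromosome 11 genes gave 90.2% below 0 and 5 higher, beside 3.24% higher over all genes fitted. DESeq2 gave 17 higher, beside 3.73% of all genes, and 8 genes of the table adjusted, none of them among the chromosome 11 genes described. FPKM with limma gave 11 lower without overlap, and omission of the genes named earlier 3, beside 0.396% and 0.320% of all genes. Each library left out in turn gave 97 to 267 lower, 7 to 22 higher, and 8 to 116 lower and 0 to 7 higher without overlap; over all genes the lower calls ran from 1.83% to 5.07%, the higher from 1.90% to 4.97%, and those without overlap from 0.454% to 1.63% lower and 0.494% to 1.56% higher. The cause was not tested. Bins of 5 Mb were 96.2% below 0. Same-numbered libraries correlated at 0.23, 0.02, -0.16, -0.23 and -0.07, with no common sign. The labels do not say whether the numbers pair libraries, and these correlations cannot exclude a shared donor or batch. With the replicate block the median was -0.26, with 121 lower and 12 higher, beside 2.97% and 3.25% of all genes. Of 87 named genes, 9 changed sign under some alternative: ENDOD1, SLC5A12, ATM, LDHA, EHF, YAP1, SMCO4, APLP2 and TMX2. Levels near 0.2 CPM rest on about 3 counts.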
